A study of Mus musculus with 42 samples.

Results

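The data described here are the gene-level RNA-seq of total RNA from NIH3T3 cells, a mouse embryonic fibroblast line, after 1 h of arsenic stress. There were 3 libraries: 1 from cells exposed to sodium arsenite at 250 µM, harvested after 1 h (AS), and 2 from non-treated cells in normal medium (NT), labelled 0 h and 4 h. The strain is given as C57BL/6, and NIH3T3 is a single established line with no genetic change named for any group. The members are all genes with more than 5 reads in each of the 3 files, which gave 11040 of the 12083 genes listed in at least 1 of them, and 3 of the 42 libraries of the series. The other 1043 genes did not pass this minimum and were not tested. The series otherwise holds mainly 3′READS libraries, which count the 3′ ends of poly(A)+ transcripts, and 3 NT and 3 AS libraries of total RNA from that set were used to look up the same genes. The comparison addresses which mRNAs had already changed in abundance by the end of the arsenite exposure.

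Arsenite binds thiol groups of proteins and causes oxidative and proteotoxic stress. In mammalian cells this is known to engage several programs: heat shock factors switch on genes of chaperones that refold damaged proteins, NRF2 and metal-responsive factors act on antioxidant and metal-binding genes, phosphorylation of eIF2α restrains translation while ATF4 mRNA and its targets are favoured, and MAP kinases induce immediate early genes, whose transcription needs no new protein. Many immediate early genes are short, and whether gene length bears on the changes described here was not tested.

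The NT libraries held 19024808 (0 h) and 17137579 (4 h) reads on coding sequences and the AS library 22777074. Between 11440 and 11806 genes were listed per library, and no listed count was below 5. The AS group had 1 library, so its variation was taken to be that of the NT libraries. The spread between the NT libraries includes 4 h of culture, and the labels do not say whether they came from separate cultures. With 1 residual degree of freedom against 44.9 prior ones, the p-values and SEs rest mostly on that spread pooled over genes. They are not the replicate error of a single gene. Counts were divided by median-ratio size factors. The median log2 ratio was then -0.01 for AS vs. NT over all tested genes, and 0.0038 for NT at 4 h vs. NT at 0 h. Of 12 fibroblast markers, 11 were listed, with a summed normalised read count of 422738 to 464567 in NT and 435446 in AS, and only Fap was at 0 in each library. The markers of epithelial, muscle and endothelial cells summed to at most 21.9 normalised reads in NT and AS. Those of blood cells and macrophages summed to 179 and 154 in NT and 241 in AS, mostly Cd68, and those of neural cells to 113 and 93.5 in NT and 158 in AS, all of it Tubb3. Ptprc, Adgre1, Itgam, Myod1, Myog, Kdr, Rbfox3, Syp and Gfap were at 0 in each library. In such bulk samples, fewer cells of a kind and less RNA per cell cannot be told apart.

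More genes were called higher in AS than lower. edgeR's quasi-likelihood test with Benjamini-Hochberg adjustment at 0.05 called 445 genes higher in AS (4.03% of those tested) and 131 lower (1.19%). All 576 lay outside both NT libraries, as did many genes that were not called, since AS was above both NT libraries for 36.7% of tested genes and below both for 36.5%. At an unadjusted edgeR p under 0.05 were 1782 of the 11040 tested genes, both directions together. These shares are the background for the counts given for gene lists below. The median fold change was 1.89 among genes called higher, with a largest of 54.5, and 1.68 among genes called lower, with a largest of 9.26. DESeq2 called fewer genes, 259 higher and 67 lower, all of them among those called by edgeR. On simulated data, the edgeR fit called 84% of genes raised by 1 on the log2 scale and 59.2% of genes lowered by 1. The simulation gave all genes the same dispersion and AS the variation of NT, which a single AS library cannot check. These rates need not hold for the real libraries, and the 445 and 131 are not to be read against each other.

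The size of the changes can be set beside the NT pair, which gives the noise scale. In AS, 211 genes (1.91%) were at least 2-fold above both NT libraries and 75 (0.679%) at least 2-fold below both, while 281 genes (2.55%) differed at least 2-fold between the NT libraries. The criteria differ, here and in the next counts, since AS had to pass both NT libraries and the NT figure is from 1 pair. Counts of AS against 1 NT library at a time were larger and are given in the last section. Nearly all of the 281 were genes with few reads. Among the 7755 genes with a mean normalised read count of at least 200, 114 were 2-fold above both NT libraries and 8 were 2-fold below both, against 9 that differed 2-fold within the NT pair. This mean includes the AS library, so genes low in NT could pass through a high AS value and genes that fell could drop out, and the 114 and 8 are not to be read against each other.

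**Figure D1:**
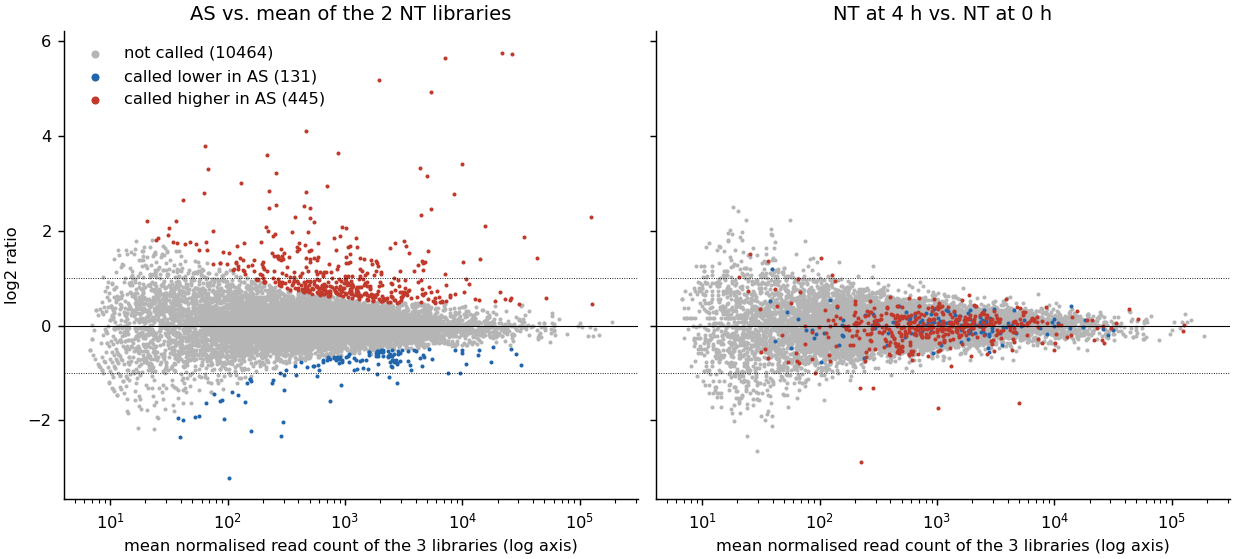
Log2 ratio (vertical axis) against the mean normalised read count of the 3 libraries (horizontal log axis) for the 11040 tested genes, with AS over the mean of NT on the left and NT at 4 h over NT at 0 h on the right. Points are genes, coloured by the edgeR call for AS vs. NT, and dotted lines mark 2-fold. The 445 genes called higher reach a log2 ratio above 5, while the same genes spread around 0 in the NT pair, apart from a few such as Nr4a1 and Nr4a3.

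The largest increases were those of the HSP70 genes Hspa1a, Hspa1b and Hspa1l, which encode chaperones that bind unfolded proteins. Hspa1a (NCBIM37 chr17:35106144-35109069, 1 exon) had 1275 and 1039 normalised reads in NT and 63012 in AS. Hspa1b (chr17:35093381-35096183, 1 exon) had 1632 and 1271 in NT and 76956 in AS. Hspa1l, which lies next to Hspa1a on the other strand (chr17:35109648-35116229), had 398 and 417 in NT and 20326 in AS. The AS value of each was about 50 times those of NT, with log2 fold changes of 5.77 ± 0.15 (SE), 5.73 ± 0.15 and 5.64 ± 0.15 (edgeR, adjusted p = 1.73e-32, 1.73e-32 and 5.37e-32). Hspa1a and Hspa1b are near-identical copies and Hspa1l is closely similar to them. The reads of Hspa1a were 0.781 to 0.819 of those of Hspa1b, and those of Hspa1l 0.244 to 0.328 of them, in the 3 libraries. The level of each copy is therefore uncertain. A rise of Hspa1l itself cannot be told apart from reads shared with the other copies. Together the 3 genes took 0.0171% and 0.0141% of reads in NT and 0.804% in AS.

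The annotated start regions were searched for elements through which such genes are known to be controlled. RefSeq windows (GRCm38.p6, from 250 bases before to 50 bases after a gene's start) were searched on both strands for the heat shock element as GAANNTTC, 2 inverted units that heat shock factors bind. It occurred in 7.86% of all 32851 windows, and in the windows of 11 of the 67 named genes called higher that had one. The 11 were Hspa1a, Hspa1b, Dnaja4, Hsph1, Bag3 and Hspb8 among chaperone and BAG genes, and Jun, Cish, Ankrd1, Pnrc1 and Tra2b among others. The other named chaperone genes called higher, Hspa1l, Dnajb1, Dnajb4, Dnajb9, Hsp90aa1, Hsp90ab1 and Cryab, had no match or no window. The stretches below were chosen from chaperone genes and have the 2 units in capitals. The stretch was identical in Hspa1a and Hspa1b.
Hspa1a (chr17:34972240-34972268, minus strand): aactgctgGAAGATTCctggccccaaggc
Hspa1b (chr17:34959322-34959350, minus strand): aactgctgGAAGATTCctggccccaaggc
Dnaja4 (chr9:54699461-54699489, plus strand): acctccgcGAACGTTCtgggcctatgtgg
Dnaja4 (chr9:54699499-54699527, plus strand): tcctggcgGAACCTTCcgccggcgccgaa

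In Hspa1a and Hspa1b the element began 104 bases before the start, and in Dnaja4 90 and 52 bases before it. A stricter form with 3 alternating units occurred in 0.603% of all windows and in those of 2 of the 67 genes, Hsph1 and Tra2b. Hsph1 is the HSP110 chaperone that recharges HSP70, and in it the element, again in capitals, lay past the annotated start.
Hsph1 (chr5:149636287-149636315, minus strand): gtaaaatgctgcagaTTCTGGAAAGTTCt

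The antioxidant response element TGACNNNGC occurred in 12.4% of all windows and in the windows of 17.1% of tested genes and 19 of the 67 named genes, and the metal response element TGCNCNC in 51.0%, 64.0% and 45 of the 67. Several windows can belong to 1 gene, and the heat shock element was found for 6.98% of tested genes with 2 units and 0.556% with 3. The counts over named genes are descriptions.

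Windows were found for 77.3% of the 445 genes called higher, under the 80% set as a minimum, so a comparison of motif shares between called and other genes is void and none is given. A match describes letters in a window and is not evidence of binding.

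Among the 15 HSP70 and HSP110 genes tested, 6 were called higher (40%, against 4.03% of all genes) and none lower. The 6 include Hspa1l, whose own level is uncertain, and the other 9 did not pass the test. Hsph1 had 17513 and 18082 normalised reads in NT and 65445 in AS (log2 fold change 1.88 ± 0.13 SE, edgeR adjusted p = 7.67e-16). Hspa8, the constitutive cytosolic HSP70, was already at 41704 and 46231 in NT and rose to 66224 (0.59 ± 0.13, edgeR adjusted p = 0.00233), and Hspa4l, an HSP110 relative, was close to the threshold (edgeR adjusted p = 0.0479). The AS values of all 3 lay above both NT libraries. Hspa5, the HSP70 of the endoplasmic reticulum, had 60708 and 69336 in NT and 71280 in AS, and Hspa9, the mitochondrial one, 33301 and 32696 in NT and 34768 in AS, and neither passed the test. Hspa1a and Hspa1b, with the closely similar Hspa1l, therefore led a family whose median log2 fold change was 0.13.

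Of 37 DNAJ co-chaperones, which deliver clients to HSP70, 5 rose (13.5%, against 4.03% of all genes) and none fell, with a median of -0.07. Dnajb1 (chr8:86132074-86135801), the main stress-inducible HSP40, had 497 and 502 normalised reads in NT and 15308 in AS, a 30.6-fold increase (log2 4.94 ± 0.15 SE, edgeR adjusted p = 7.95e-30). Dnaja4 had 71.0 and 75.5 in NT and 528 in AS (2.85 ± 0.28, edgeR adjusted p = 7.29e-11). Dnajb4 and Dnaja1 rose 3.19-fold and 1.97-fold, and Dnajb9, a co-chaperone of the endoplasmic reticulum, rose 2.64-fold. The NT libraries lay close together for each of these genes, and AS was far above both.

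The largest increases in the other chaperone groups were smaller. The share called higher was 9.52% of the HSP90 list and 30% of the small heat shock and BAG list, against 4.03% of all genes. Of 21 genes of HSP90 and its co-chaperones, 2 rose: Hsp90aa1, the inducible HSP90, with 24139 and 30859 normalised reads in NT and 73481 in AS (log2 1.42 ± 0.14 SE, edgeR adjusted p = 4.06e-11), and Hsp90ab1, the constitutive one, with 112827 and 113694 in NT and 154805 in AS (0.45 ± 0.13, edgeR adjusted p = 0.0251). The call of Hsp90ab1 was lost with DESeq2 and when counts were scaled to library totals. Of 10 small heat shock and BAG family genes tested, Bag3, Hspb8 and Cryab rose, 3.35-fold, 1.89-fold and 1.67-fold. Bag3 joins HSP70 to Hspb8 in the disposal of aggregated proteins. None of the 10 chaperonin genes was called by edgeR or DESeq2 (1 higher and 1 lower at an unadjusted edgeR p under 0.05), and Hspd1, the mitochondrial HSP60, had 18283 and 21689 normalised reads in NT and 17661 in AS.

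Zfand2a and Zfand5, AN1 zinc finger proteins that act at the proteasome, rose 4.82-fold and 2.59-fold. They were among the 3 genes called higher, by edgeR and also by DESeq2, of the 19 genes of the list of ubiquitin-coding, AN1 zinc finger and autophagy receptor genes (15.8%, against 4.03% of all genes). AS was above both NT libraries for 16 of the 19, against 36.7% of all genes. The 36 proteasome subunit genes gave no call by edgeR or DESeq2, with 2 lower at an unadjusted edgeR p under 0.05, and their median was -0.07.

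Atf3 was the most induced transcription factor and the largest increase outside the chaperones. It is a bZIP factor of the AP-1 and CREB families (chr1:192994175-193007219) and went from 187 and 119 normalised reads in NT to 5598 in AS, or 36.6-fold (log2 5.18 ± 0.18 SE, edgeR adjusted p = 3.24e-27). Of the 9 AP-1 genes tested, 6 rose (66.7%, against 4.03% of all genes) and none fell, by edgeR and also by DESeq2. Their median was 1.43. Fos had 203 and 231 in NT and 1681 in AS, and Jun had 6730 and 8284 in NT and 32133 in AS. Junb, Jund and Fosl1 rose 3.46-fold, 2.70-fold and 2.40-fold. AS was above both NT libraries for 8 of the 9, against 36.7% of all genes.

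Most immediate early genes rose. Of 37 tested, 21 rose (56.8%) and 1 fell, against 4.03% and 1.19% of all genes, with a median of 0.81, and DESeq2 called 14 higher. Csrnp1, a nuclear protein induced by growth and stress signals, had 85.2 and 59.7 normalised reads in NT and 1254 in AS (log2 4.10 ± 0.24 SE, edgeR adjusted p = 1.02e-18). Egr2, a zinc finger factor, had 172 and 186 in NT and 2247 in AS, and Arc, best known from neurons, 44.6 and 46.2 in NT and 554 in AS. The increases were 17.3-fold, 12.5-fold and 12.2-fold, and AS was far above both NT libraries. Egr1 rose 6.83-fold and Egr3 5.87-fold, Btg2, which restrains growth, 4.17-fold, and Zfp36, which promotes decay of mRNAs with AU-rich elements, 3.94-fold. Its relative Zfp36l2 was the member that fell, from 3665 and 2636 to 1890 (-0.74 ± 0.17, edgeR adjusted p = 0.00342).

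The CArG box, to which SRF binds in genes of this class, was searched on both strands. It occurred in 1.63% of all windows, in those of 1.54% of tested genes and in those of 4 of the 67 named genes called higher that had one, Egr2, Zfp36, Fhl2 and Vcl. The stretches of Egr2 and Zfp36, the most increased of the 4, are given in GRCm38.p6 with the box in capitals, and the Zfp36 box began 58 bases before the start.
Egr2 (chr10:67537789-67537817, plus strand): tcctcagtCCATATATGGgcagcgacgtc
Zfp36 (chr7:28379266-28379294, minus strand): aggccgccCCATAAAAGGagaaagctcct

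Among the 15 largest increases were also 3 genes outside the lists. Mxd1, a partner of MAX that opposes MYC, had 37.5 and 40.6 normalised reads in NT and 313 in AS (log2 3.00 ± 0.34 SE, edgeR adjusted p = 4.23e-09). Rasgef1b, an exchange factor of RAS proteins, had 15.2 and 9.01 in NT and 168 in AS, and Eid3 had 13.2 and 21.4 in NT and 171 in AS. The last 2 rested on few NT reads, and DESeq2 called neither.

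For the NR4A nuclear receptors the NT libraries themselves differed. Nr4a1 had 2065 normalised reads in NT at 0 h, 665 in NT at 4 h and 12196 in AS (log2 3.16 ± 0.24 SE, edgeR adjusted p = 2.12e-14), and Nr4a3 had 157, 21.4 and 500. Both were higher in AS than in either NT library, but the fold depended on which one was used, and the Nr4a1 call was lost with DESeq2. The SE of Nr4a1 rests mostly on the pooled spread, whereas its own NT libraries had a standard deviation of 1.16 on the log2 scale. Over the 37 immediate early genes the median log2 ratio of NT at 4 h to NT at 0 h was -0.24, and 23 were lower at 4 h. The part of the culture time in these values was not tested.

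Genes that switch such signals off rose as well. Of 10 dual-specificity phosphatases, which inactivate MAP kinases, Dusp1, Dusp4, Dusp5, Dusp8 and Dusp10 rose (50%, against 4.03% of all genes). DESeq2 also called 3 of these. Dusp1 had 266 and 234 normalised reads in NT and 1145 in AS (log2 2.19 ± 0.21 SE, edgeR adjusted p = 2.46e-11), while Dusp8 rested on few reads, 9.13 and 23.7 in NT and 76.1 in AS. Of 21 ID, HES and SMAD feedback genes, 6 rose (28.6%, against 4.03% of all genes, and 2 with DESeq2) and 1 fell. The one that fell was Socs1, an inhibitor of cytokine signalling, from 233 and 199 to 46.4 (-2.22 ± 0.37, edgeR adjusted p = 2.85e-05). Its relative Cish rose 2.28-fold by edgeR, a call that DESeq2 did not make.

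Of 28 genes of the integrated stress response and ATF4 targets, 8 rose (6 with DESeq2) and none fell. The 8 made up 28.6% of the list, against 4.03% of all genes. The median was 0.02, and AS was above both NT libraries for 11 and below both for 11, against 36.7% and 36.5% of all genes. Ppp1r15a, the phosphatase subunit that reverses eIF2α phosphorylation (chr7:52778286-52781638), went from 1276 and 887 normalised reads in NT to 10847 in AS (log2 3.32 ± 0.16 SE, edgeR adjusted p = 6.87e-22). Chac1, which degrades glutathione, went from 66.9 and 69.8 to 640 (3.22 ± 0.27, edgeR adjusted p = 6.32e-13), and Ddit3, the factor CHOP, from 2060 and 1699 to 9474 (2.33 ± 0.15, edgeR adjusted p = 2.59e-17). Trib3, Sesn2, Ddit4, Slc3a2 and Atf4 also rose, Atf4 itself 1.66-fold, and DESeq2 did not call Trib3. Asns, the asparagine synthetase among the ATF4 targets, had 3181 and 3384 in NT and 2934 in AS and did not pass the test. No aminoacyl-tRNA synthetase of 20, further targets of ATF4, was called by edgeR or DESeq2 (1 higher and 1 lower at an unadjusted edgeR p under 0.05).

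The composite site to which C/EBP and ATF factors bind, searched as TGATGCAA on both strands, occurred in 0.895% of all windows, in those of 0.679% of tested genes and in those of 3 of the 67 named genes, Atf3, Chac1 and Gadd45g. The cAMP response element TGACGTCA, bound by CREB and ATF factors, occurred in 1.79% of windows, in those of 3.78% of tested genes and in those of 11 of the 67. The stretches of the 3 genes, and the cAMP response elements of Ppp1r15a, Dusp1 and Btg2, are shown with the element in capitals because these genes were among the most increased of their lists.
Atf3 (chr1:191183423-191183451, minus strand): tctcgcacTTGCATCAccaagtccgcggt
Chac1 (chr2:119351041-119351069, plus strand): ccctgccgTTGCATCActcctgccaggtc
Gadd45g (chr13:51846566-51846594, plus strand): cgcctcatTTGCATCAgaaagcgggcgct
Ppp1r15a (chr7:45526260-45526288, minus strand): ctctccggTGACGTCAgcacagcgccgcg
Dusp1 (chr17:26508595-26508623, minus strand): agggcgggTGACGTCAccgcccggtcacg
Btg2 (chr1:134079301-134079329, minus strand): cccaataaTGACGTCAgtgagcgatgacc

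These coordinates are of GRCm38.p6, whereas gene positions elsewhere are of NCBIM37. The elements began 110 bases (Atf3), 193 bases (Chac1), 101 bases (Gadd45g), 12 bases (Ppp1r15a), 143 bases (Dusp1) and 166 bases (Btg2) before the annotated start.

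Of 26 genes of the unfolded protein response of the endoplasmic reticulum, Dnajb9 rose (3.85%, near the 4.03% of all genes), Sel1l, a part of the degradation machinery, fell from 2596 and 2716 to 1710 (log2 -0.63 ± 0.16 SE, edgeR adjusted p = 0.00829), and the median was -0.15. The p53 response list had 8 of 23 genes higher (34.8%, against 4.03% of all genes) and none lower. They were Gadd45g, Plk3, Gadd45a, Plk2, Mdm2, Cdkn1a, Ppm1d and Gadd45b, several of which are stress genes that also respond without p53. Gadd45g had 228 and 170 normalised reads in NT and 1120 in AS, and Cdkn1a, the cell cycle inhibitor p21, 379 and 256 in NT and 749 in AS.

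NRF2 targets were divided, with 4 of 25 called higher (16%, against 4.03% of all genes) and 1 lower. Hmox1 (chr8:77617490-77624495), which breaks down heme, went from 2724 and 1915 normalised reads in NT to 24875 in AS, or 10.7-fold (log2 3.42 ± 0.15 SE, edgeR adjusted p = 3.86e-23). Sqstm1, an autophagy receptor, rose 2.54-fold, and Osgin1 and Srxn1 rose with less margin (edgeR adjusted p = 0.0228 and 0.0396). Slc7a11, the cystine transporter, was instead lower, with 88.2 and 63.1 in NT and 20.1 in AS (-1.91 ± 0.53, edgeR adjusted p = 0.0208), a call that DESeq2 did not make. The other 20 of the 25 genes did not pass the test, among them Nqo1, with 1081 and 1155 in NT and 962 in AS, and Gclm, with 420 and 463 in NT and 457 in AS. The median of the list was -0.02, and DESeq2 called 2 of its genes higher and none lower.

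Of 3 metallothionein and zinc export genes tested, 2 rose (66.7%, against 4.03% of all genes). Slc30a1, the zinc exporter, had 172 and 176 normalised reads in NT and 997 in AS (log2 2.52 ± 0.22 SE, edgeR adjusted p = 2.09e-12). Mt1 rose 1.65-fold, and Mt2 had 7020 and 5625 in NT and 8675 in AS (edgeR adjusted p = 0.0596). Among 17 stress-sensing factors and their partners, Maff, Mafk and Hsf2 rose (17.6% of the list, against 4.03% of all genes), of which DESeq2 called 1. AS was above both NT libraries for 12 of the 17, against 36.7% of all genes. Hsf1, the main heat shock factor, had 666 and 696 in NT and 678 in AS, and Nfe2l2, which encodes NRF2, 3640 and 3253 in NT and 4218 in AS. Neither regulator's mRNA passed the test.

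**Figure D2:**
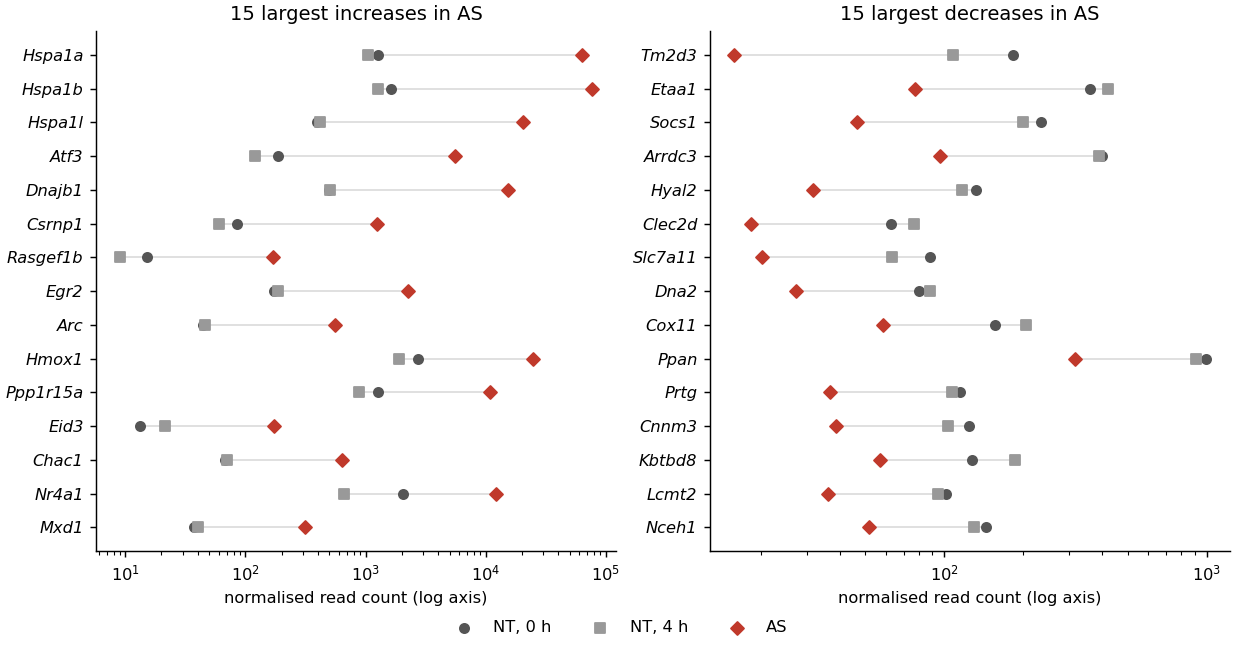
Normalised read counts (horizontal log axis) in the NT library at 0 h, the NT library at 4 h and the AS library for the 15 genes with the largest increases (left) and the 15 with the largest decreases (right) among called genes with a mean count of at least 50. Each point is 1 library and grey lines join a gene's values. The NT points nearly coincide for most genes, with Nr4a1 the widest pair at 2065 and 665.

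Genes of secreted signals and of matrix were called in both directions. Of 21 cytokine and growth factor genes, 5 rose (23.8%, against 4.03% of all genes). Among them were Hbegf, an EGF receptor ligand, from 143 and 186 normalised reads to 804 (log2 2.29 ± 0.23 SE, edgeR adjusted p = 1.94e-10), and Il11, Ptgs2 and Ereg. Ccl7, a chemokine, fell by 0.57 and Has2, a hyaluronan synthase, fell by 0.64 on the log2 scale, and DESeq2 called 1 gene of the list lower. Of 37 matrix genes, Serpinh1, the collagen chaperone, and Thbs1 rose by less than 1.5-fold, whereas Fbn1 fell from 11264 and 11809 to 5743 (-1.01 ± 0.15, edgeR adjusted p = 2.39e-06) and Col3a1 from 10247 and 9052 to 6747. DESeq2 called neither Thbs1 nor Col3a1. The genes called higher made up 5.41% of the matrix list, near the share over all genes. Genes called lower numbered 2 of 21 in the cytokine list and 2 of 37 in the matrix list, against 1.19% of all genes. In the same list, NT at 4 h was below NT at 0 h for 30 of the 37 genes, with a median log2 ratio of -0.18. Of 20 actin and SRF target genes, Ankrd1, Fhl2, Thbs1 and Vcl (20% of the list, against 4.03% of all genes) rose by 2.21-fold or less. DESeq2 also called 2 of them.

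In the mRNA decay list, 6 of 38 rose (15.8%, against 4.03% of all genes) and 1, Smg1, fell by edgeR but not by DESeq2, and the 4 that rose most were Btg2, Tob1, Tob2 and Pnrc1. The first 3 are adaptors that recruit the CCR4-NOT deadenylase, and Tob1 had 162 and 96.9 normalised reads in NT and 479 in AS. Among 32 SR protein and hnRNP genes, Clk1, Clk4, Tra2a, Tra2b, Srsf7 and Srsf11 rose (18.8%, against 4.03% of all genes). Clk1, a kinase of SR proteins, had 3022 and 3164 in NT and 7704 in AS (log2 1.32 ± 0.14 SE, edgeR adjusted p = 1.38e-09). Of 23 cleavage and polyadenylation factor genes, Pcf11, which acts in transcription termination, rose from 2877 and 2821 to 6921 (1.28 ± 0.14, edgeR adjusted p = 3.45e-09), Cstf3 rose 1.53-fold (not called by DESeq2), and the others did not pass. Of 22 elongation genes, Ccnt2, a cyclin of P-TEFb, rose 2.20-fold and Ell2 1.47-fold, the latter not called by DESeq2. The genes called higher made up 8.70% of the polyadenylation factor list and 9.09% of the elongation list, against 4.03% of all genes. In the stress granule and AU-rich element binding list of 23, Zfp36 rose (4.35%, near the share over all genes) and Zfp36l2 fell, with a median of -0.02.

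Of 22 cholesterol synthesis genes, 7 rose (31.8%, against 4.03% of all genes), none fell and 15 were not called, with a median of 0.35 and 6 of the calls also made by DESeq2. Hmgcs1, the synthase early in the pathway, had 8568 and 9658 normalised reads in NT and 24019 in AS (log2 1.40 ± 0.14 SE, edgeR adjusted p = 5.49e-11). Insig1, Pmvk, Msmo1, Cyp51 and Fdps rose by less. The AS library was above both NT libraries for 15 of the 22, against 36.7% of all genes.

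Zinc finger genes named Zfp were the largest list. Of 298 tested, 26 rose (8.72%, against 4.03% of all genes) and 1 fell, with a median of 0.23, and 14 were called by DESeq2. Zfp948 had 1285 and 1547 normalised reads in NT and 4386 in AS (log2 1.63 ± 0.15 SE, edgeR adjusted p = 1.83e-11), and Zfp1 rose 2.76-fold. Zfp72, which rose 4.17-fold, rested on 18.3 and 12.4 in NT and 63.9 in AS, and DESeq2 did not call it.

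None of the 80 ribosomal protein genes was called by edgeR or DESeq2, none of them had an unadjusted edgeR p under 0.05, and their median was -0.02. None of the 74 respiratory chain genes was called either (2 lower at an unadjusted edgeR p under 0.05), with a median of -0.10. Of 42 cell cycle and replication genes, 2 fell by edgeR alone, against 1.19% of all genes. Ccne1, a cyclin of S phase entry, fell from 478 and 639 normalised reads to 305, and Cdc25a from 943 and 994 to 585. AS was below both NT libraries for 30 of the 42, against 36.5% of all genes, and the median of the list was -0.30. At an unadjusted edgeR p under 0.05, 12 of the 42 were lower and 1 higher, against 1782 of all 11040 tested genes in both directions together. In the same list the NT libraries differed too, with NT at 4 h below NT at 0 h for only 2 of 42 genes and a median ratio of 0.21. Histone genes, many of whose mRNAs lack poly(A) tails, had 23 tested members, a median of -0.43 and no call by edgeR or DESeq2 (9 lower at an unadjusted edgeR p under 0.05). Mitochondrially encoded mRNAs are not listed in these files.

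**Figure D3:**
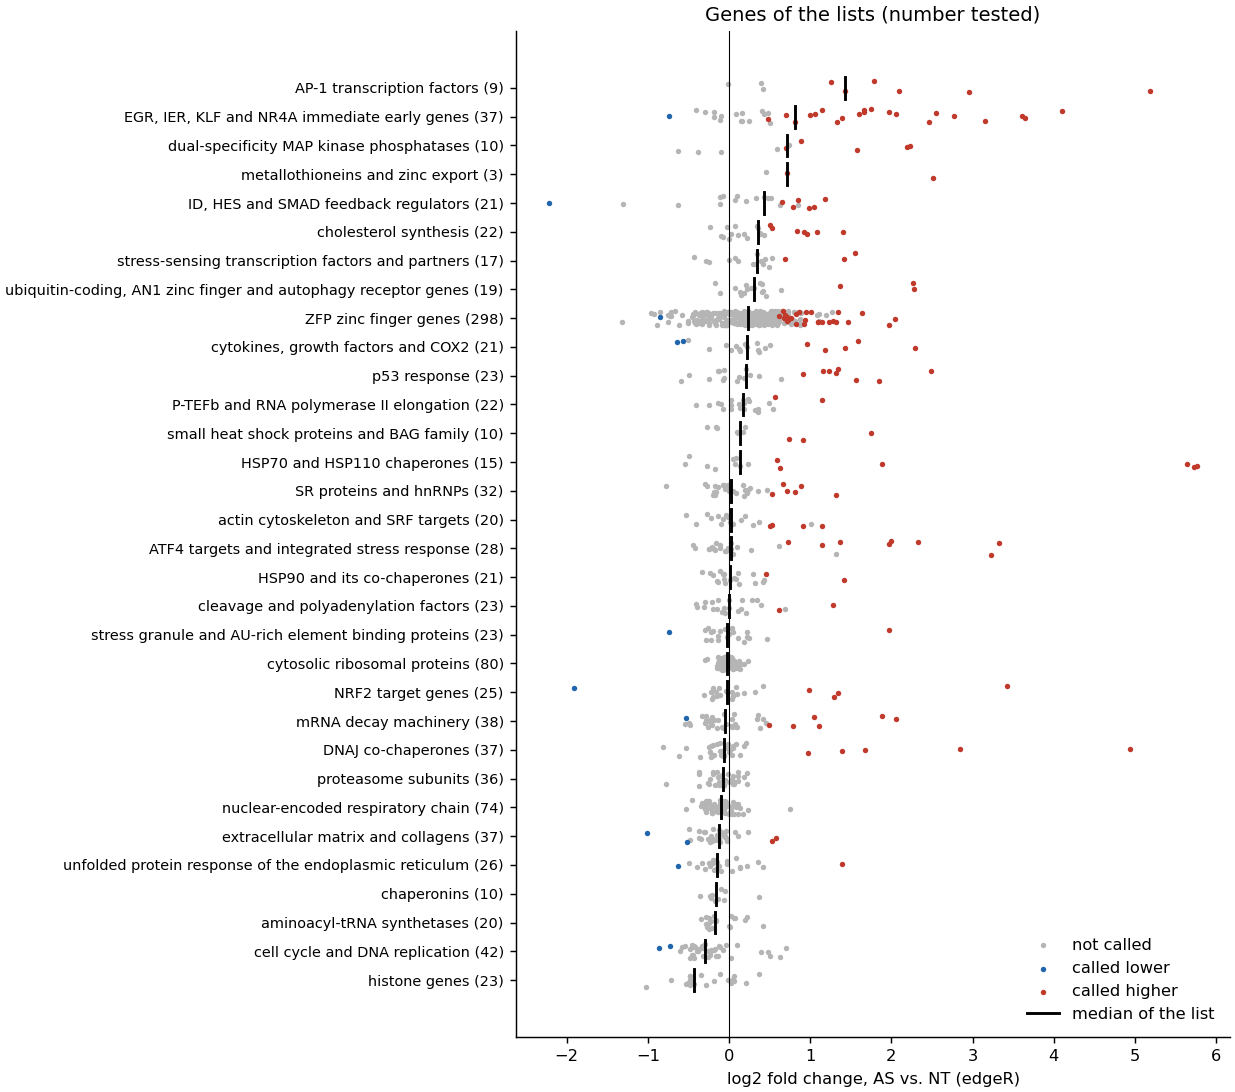
Log2 fold change of AS vs. NT (horizontal axis, edgeR) of every tested gene of 32 lists, with the number tested in brackets. Points are genes, red where called higher, blue where called lower and grey otherwise, and black bars are list medians. AP-1 and immediate early genes have the highest medians (1.43 and 0.81), while chaperone lists have medians near 0 with a few genes far to the right.

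The decreases were smaller and of another kind. The largest was that of Tm2d3 (chr7:72836055-72846799), a transmembrane protein, with 184 and 108 normalised reads in NT and 15.7 in AS (log2 -3.20 ± 0.50 SE, edgeR adjusted p = 6.19e-06), although DESeq2 did not call it. Etaa1, an activator of the replication stress kinase ATR, had 359 and 422 in NT and 77.0 in AS (-2.34 ± 0.31, edgeR adjusted p = 1.59e-07), and Arrdc3, an arrestin-domain protein, 401 and 388 in NT and 96.2 in AS (-2.03 ± 0.29, edgeR adjusted p = 1.39e-06). AS lay far below both NT libraries for these. Ppan, a factor of ribosome assembly, fell 3.02-fold from 995 and 915, and Cox11, which serves assembly of cytochrome c oxidase, 3.08-fold from 156 and 205. Hyal2, Clec2d, Dna2, Prtg, Cnnm3, Kbtbd8, Lcmt2 and Nceh1 complete the 15 largest decreases with Socs1 and Slc7a11. These 8 had 18.4 to 56.9 normalised reads in AS, and DESeq2 called none of the 8.

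Long coding sequences were over-represented among the genes that fell. The 131 genes called lower had a median coding length of 2433 nt and 13.5 exons, against 1431 nt and 9 exons for all tested genes and 1626 nt and 8 exons for the 445 called higher. Among the 59 genes with at least 9600 nt of coding sequence, 19 were called lower (32.2%, against 1.19% of all genes) and none was called higher by edgeR. AS was below both NT libraries for 46 of the 59 and above both for 7, against 36.5% and 36.7% of all genes. DESeq2 called 17 of the 59 lower. Their median log2 fold change was -0.45, whereas the median ratio of the NT libraries for them was -0.04. In the next class, 4800 to 9600 nt, 18 of 459 were called lower (3.92%) and 8 higher, with a median of -0.10, and in the classes below 2400 nt the share called lower was 0.701% to 0.810%.

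Long genes had more reads, with a median of 2882 normalised reads in NT in the longest class against 489 over all tested genes, so the shares were also taken among genes with a mean of at least 1000 normalised reads in NT. There, 19 of the 39 genes of at least 9600 nt were called lower (48.7%), against 2.38% of all 3568 genes at that level. The genes of this class that fell most, chosen after their values were seen, were Kmt2d (-1.08 ± 0.16, edgeR adjusted p = 4.28e-06) and Kmt2a (-0.93 ± 0.16, edgeR adjusted p = 2.97e-05), which methylate histone H3, and Mdn1 (-0.99 ± 0.15, edgeR adjusted p = 3.92e-06), a giant ATPase of ribosome assembly. Kmt2d had 3008 and 2756 normalised reads in NT and 1367 in AS, Mdn1 9265 and 8992 in NT and 4589 in AS, and Ahnak, a giant scaffold protein, 38274 and 35712 in NT and 20671 in AS. In RNA-seq the NT libraries were close together for each. In 3′READS, Ahnak was instead above NT in all 3 pairs, with 27.9, 45.1 and 11.6 normalised reads in NT and 31.9, 51.8 and 25.4 in AS (paired log2 0.33 ± 0.30 SE, edgeR adjusted p = 0.879).

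**Figure D4:**
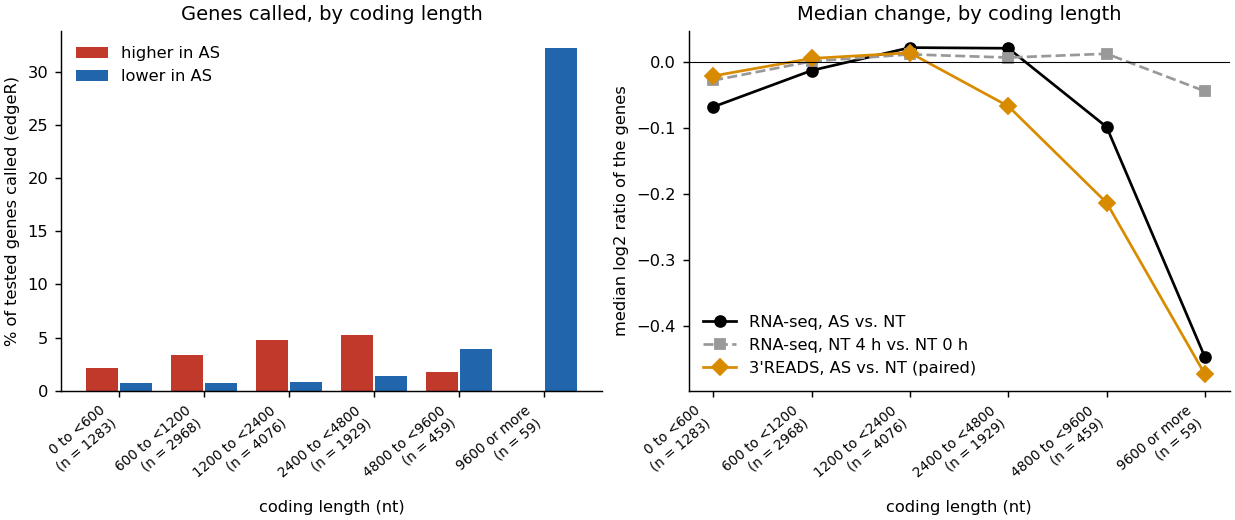
Left, percent of tested genes called higher or lower in AS (bars, edgeR) by class of coding length in nt, with the number of genes per class. Right, median log2 ratio of the genes of each class for AS vs. NT by RNA-seq, for NT at 4 h vs. NT at 0 h, and for AS vs. NT by 3′READS. The class of 9600 nt or more has 32.2% of genes called lower and medians of -0.45 and -0.47 by the 2 assays, while the NT ratio stays near 0.

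Gene span, introns included, was also set beside the calls. Of the genes spanning at least 100000 bases 2.90% were called lower, and of those under 5000 bases 1.05%, against 1.19% of all genes. Among genes with a mean of at least 1000 normalised reads in NT, the shares were 5.44% and 2.22%, against 2.38%. For increases, span and coding length gave different pictures. Of 1147 genes spanning less than 5000 bases, 4.01% were at least 2-fold above both NT libraries, and of 1378 spanning at least 100000 bases, 0.798% were, against 1.91% of all genes. Short genes also had fewer reads, with a median of 252 normalised reads in NT against 689 for the longest. By the edgeR call for genes higher in AS, which takes counts into account, the shares were 5.32% and 4.28%. By coding length, the shortest class, under 600 nt, had 2.18% of genes called higher and 1.33% past 2-fold of both NT libraries, below the shares over all genes.

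The same genes were looked up in 3′READS, in which AS and NT libraries of total RNA carry the replicate numbers 1, 2 and 4. A read there marks a 3′ end. The RNA-seq libraries carry the number 3, and the labels do not say whether any RNA was shared between the assays. Of 9027 genes tested, edgeR called none higher or lower without pairing (0%, with 19 at an unadjusted p under 0.05, and none by DESeq2). Libraries with the same number deviated together, and with the replicate number as a block edgeR called 10 higher (0.111%) and none lower (0%), with 601 genes at an unadjusted p under 0.05. Among the 10 were Csrnp1, Chac1, Ddit3, Mt2, Gadd45g, Mt1, Hmox1, Zfp36 and Gadd45b. By RNA-seq, 9 of the 10 were also called higher, and all 10 had positive RNA-seq log2 fold changes.

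Directions were then counted over the pairs. In all, 368 of the 445 genes called higher by RNA-seq were measured in 3′READS, and 183 of them (49.7%) were above NT in all 3 AS libraries of the pairs, against 14.4% of the 8685 genes measured by both. Only 7 of the 368 were below NT in all 3 pairs. Of the 131 called lower, 113 were measured, 61 (54.0%) were below NT in all 3 pairs, against 13.6% of all, and 2 were above in all 3. For the genes of at least 9600 nt of coding sequence, 41 were measured in 3′READS, 23 were below NT in all 3 pairs and 3 above, with a median log2 fold change of -0.47. The directions seen in 1 AS library of RNA-seq were thus found more often than the background in libraries that RNA-seq did not use.

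Individual genes show how the assays differ. Csrnp1 had 54.7, 115 and 116 normalised 3′READS reads in NT (replicates 1, 2 and 4) and 257, 727 and 493 in AS, a paired log2 fold change of 2.36 ± 0.18 (SE, edgeR adjusted p = 0.0073). Hmox1 had 532, 136 and 549 in NT and 2377, 1540 and 1944 in AS (2.49 ± 0.30, edgeR adjusted p = 0.0266). Dnajb1 had 107, 132 and 260 in NT and 434, 2316 and 800 in AS (2.64 ± 0.44, edgeR adjusted p = 0.111). AS exceeded NT in every pair for the 3, but for Dnajb1 the size differed so much between pairs that it was not called. Mt2, not called by RNA-seq, had 191, 1938 and 1374 in NT and 603, 7655 and 3288 in AS (1.64 ± 0.17, edgeR adjusted p = 0.0163).

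For other genes the assays stood apart. Egr1 had 1067, 12.2 and 0 normalised 3′READS reads in NT and 988, 29.5 and 0 in AS, so that its 6.83-fold increase in RNA-seq had no counterpart in the replicate with most reads, and it was listed at 0 in replicate 4. Hsph1 had 1048, 1701 and 1265 in NT and 1434, 3309 and 1210 in AS, a log2 fold change of 0.46 against 1.88 by RNA-seq. Tm2d3 was below NT in all 3 pairs, with 129, 191 and 182 in NT and 75.1, 56.4 and 155 in AS.

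**Figure D5:**
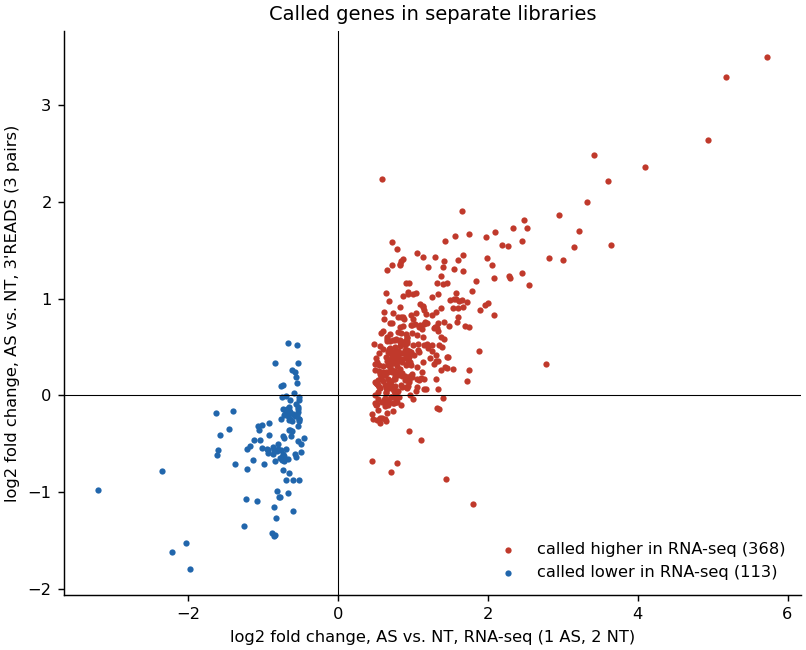
Log2 fold change of AS vs. NT by RNA-seq (horizontal axis, 1 AS and 2 NT libraries) against that by 3′READS with pairing (vertical axis, 3 AS and 3 NT libraries) for called genes measured in both, 368 higher and 113 lower. Each point is a gene. Of the genes called higher, 322 lie above 0 on the vertical axis, and of those called lower, 11 do.

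The library after 4 h of recovery (RC4) shares the NT controls with AS, so its values are given only side by side. Hspa1a had 63012 normalised reads in AS and 896237 in RC4, Dnajb1 15308 and 60388, and Hmox1 24875 and 255005. Egr2 had 2247 in AS and 435 in RC4, and Zfp36 970 and 394. Slc7a11, which was low in AS with 20.1, had 2565 in RC4. Csrnp1 and Chac1 had 1254 and 640 in AS and 1293 and 518 in RC4. There was 1 RC4 library, and no test was made.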

How the data were processed

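The authors purified poly(A)+ RNA, made strand-specific libraries, used Cutadapt for adapter removal and STAR for alignment to the mm9 build, and deposited raw read counts per gene symbol on coding sequences. For 3′READS, mapped with bowtie2, they deposited read counts per cluster of polyadenylation sites. How reads that map to several places were treated in RNA-seq is not given in the sources used here. Genes under 5 reads were not listed, 17 symbols had been turned into dates, and 1 symbol given on 2 rows of each file was left out.

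Counts were scaled by median-ratio size factors (AS 1.14, NT 0.986 and 0.888) and tested with edgeR (version 4.0.16, R 4.3.3; quasi-likelihood, Benjamini-Hochberg threshold 0.05) on the 3 RNA-seq libraries with 1 residual degree of freedom. The square root of the common dispersion was 0.122. DESeq2 (version 1.42.0), TMM, library totals, other read minimums, an added RC4 library and leaving out each NT library were alternatives. Tested on simulated data with 200 changed genes, the RNA-seq fit called 84% of genes raised and 59.2% of genes lowered by 1 on the log2 scale, 100% of those changed by 2, and 0.0834% of unchanged genes. PAS reads were assigned to last exons of GENCODE version M1 genes on NCBIM37, or up to 4000 nt beyond, and genes with at least 10 reads in at least 3 libraries were tested. The 3′READS depth was 1178477 to 6974664 PAS reads. Deviations of same-numbered libraries correlated at 0.811, 0.804 and 0.76, so the shared replicate number was used as a pairing; the numbers alone are from the labels.

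Gene structure matched 97.6% of tested genes, and promoter windows, from RefSeq by symbol, 81.4%. Named genes were, by rule, the 15 largest changes in each direction among called genes with a mean count of at least 50, and up to 4 called members of each of 33 lists, or 2 with the highest counts where none was called, and 8 in each direction among genes left out by the read minimum. The genes named besides these were chosen after their values were seen. The members, lists and tests were chosen with earlier results of these data known. Some genes that the rule names are not reported here.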

Additional observations from a re-analysis of the deposited data

Results flagged for a closer look

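Some genes fell outside the comparison because they did not have more than 5 reads in every file. Of 1043 such genes, 353 were listed in AS and in neither NT file, 17 of them with at least 20 reads. Another 278 were listed in NT and not in AS, 70 of them in both NT files. The AS library held the most reads, 22777074 against 19024808 and 17137579 in NT, so the 353 and 278 are not to be read against each other. A gene is not listed below 5 reads, so no fold is given. The 8 with the most normalised reads in AS, chosen among the genes not listed in NT, were Hspb1 (32.4), a small heat shock protein, Hist1h2bh (27.1), A3galt2 (23.6), 4930548H24Rik (22.7), Ankrd2 (21.9), Gpd1 (21.9), Crispld1 (20.1) and Gpr75 (20.1). Hspb1 had 37 reads in AS and 13821 in the RC4 library. In the other direction, the 8 with the highest mean in NT were Rassf6, Hoxc5, Rarres2, Wnk3, Slc12a1, Hook1, Angpt4 and Slc22a17, at 15.2 to 27.8 normalised reads.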

How the results depend on the processing

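The counts of genes called by edgeR stayed within 1.5 times the reported 445 and 131 with TMM, library totals, an added RC4 library and a minimum of 20 reads. DESeq2 called 259 and 67, and with more than 5 reads in at least 1 file 87 genes were lower. The counts of genes past 2-fold of both NT libraries, 211 and 75, became 543 and 291 with more than 5 reads in at least 1 file, 667 and 319 at 1.5-fold, and, for lower genes, 37 with more than 20 reads in all files. Taken against 1 NT library at a time they were 397 to 425 higher and 162 to 170 lower. The 281 genes past 2-fold within the NT pair became 88 with more than 20 reads. For 3′READS, calls without the replicate block were 0 in both directions under all alternatives run, and with the replicate block 10 higher. Without 1 NT library no residual degree of freedom is left, so only folds were taken. Of the 100 named genes that were called, 30 lost the call with DESeq2, 9 with more than 5 reads in at least 1 file and 1 with library totals, and none changed direction under any alternative run. Depth limits mainly genes of low counts, and AS has 1 library.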
